A study of Arabidopsis thaliana with 6 samples.

Results

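The calmodulin-like (CML) genes encode small calcium sensors, and 7 of them could be followed in paraquat-sprayed and mock-sprayed Arabidopsis leaves. They were chosen as the probe sets that name exactly 1 gene whose symbol is CML plus a number and whose signal lay above a floor of 86.2 on at least 1 array. All 7 such probe sets of the 13513 that name exactly 1 gene met the floor, and they measure CML23 (AT1G66400), CML30 (AT2G15680), CML37 (AT5G42380), CML38 (AT1G76650), CML41 (AT3G50770), CML42 (AT4G20780) and CML43 (AT5G44460). CML23 was nearest to the floor, with a highest signal of 138 and 3 arrays above it. CML43 was above it on 5 arrays and the other members on all 6. Just outside the choice lies AT1G76640, which carries CML39 only as a synonym and had a highest signal of 7.31.

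The leaves came from 3-week-old plants carrying flu1-1 in the Landsberg erecta (Ler) ecotype, grown on soil in continuous light and not yet bolting. Leaves were sprayed with paraquat in 0.1% Tween and harvested 1, 2 or 4 h later, and the mock leaves received the Tween solution alone and were harvested at the same hours. Sample titles state a paraquat dose of 20 mM but the protocol states 20 microM, so the dose stays unsettled. Each of the 6 groups is 1 ATH1 array of RNA pooled from 2 experiments, with rosettes of 5 to 6 plants per sample, so the spread between experiments cannot be seen. All groups carry the flu mutation, which disturbs the control of chlorophyll synthesis, and no wild-type leaves are among them.

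CML proteins bind calcium through EF-hand motifs, change shape and then bind partner proteins, in the manner of calmodulin but with more diverged sequences. Stress such as touch, wounding, microbial elicitors or reactive oxygen species sets off brief rises of calcium in the plant cell, and many CML transcripts are known to respond to such stimuli. Paraquat takes electrons from photosystem I in the light and hands them to oxygen, which forms superoxide in the chloroplast.

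The median signal of an array was 157.8 to 162.1, and each array had 59.1% to 60.8% of its probe sets above the floor. The paraquat 1 h array was highest in some control measures. Its 25S ribosomal RNA signal was 308, and its ratio of the 3' to the 5' GAPDH signal was 1.15 in 1 pair of probe sets. On the paraquat 2 and 4 h arrays the 25S signal was 111 and 243, and on the mock arrays it was 92.8 to 131, while the GAPDH ratio of these 5 arrays was 0.89 to 1.05. In another GAPDH pair the 3' signal exceeded the 5' signal only on the paraquat 1 h and 4 h arrays. This pair had 9133 (3') and 9123 (5') on paraquat 1 h, and 9938 and 9821 on paraquat 4 h. Mock 1 h had 7890 and 8804, and paraquat 2 h 9243 and 9735. On mock 2 h the pair had 9188 and 10131, and on mock 4 h 9413 and 9842. A 5' actin signal was 1329 on paraquat 1 h and 527 to 584 on the other arrays. In a further 5' actin probe set it was 3951, and 3979 to 4957 on the others. The part of these control differences in the 1 h values below was not tested. Of the fixed leaf markers, 2 of 15 were measured, RCA (rubisco activase) and LHCB4.2, and their summed signal was 19248 to 21909 in paraquat and 19376 to 19922 in mock leaves. Singly they differed more, as LHCB4.2 had 5806, 4810 and 6699 in paraquat and 3515, 3092 and 5066 in mock leaves at 1, 2 and 4 h, and RCA had 14415, 14438 and 15210 in paraquat and 16016, 16284 and 14855 in mock leaves. Of 7 root markers, PYK10 was below the floor on all arrays and EXPA7 exceeded it on a single array, mock 1 h, with 95.9, and of 6 flower markers 0 were measured. In whole leaves, fewer cells of a type and less RNA per cell cannot be told apart.

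At 1 h, 5 of the 7 CML genes had a higher signal in paraquat than in mock leaves, by 0.49 to 1.28 log2 units. A higher signal of any size at 1 h was found for 49.6% of all tested probe sets. At 2 h, 2 of 7 members were higher in paraquat leaves, against 50.2% of all tested probe sets, and at 4 h 4 of 7, against 47.0%. Ratios here are differences of log2(signal + 34), paraquat minus mock. The added 34 makes them understate changes of dim genes. The members' median ratio at 1, 2 and 4 h stood at 0.55, -0.06 and 0.01, against medians of -0.0025, 0.00072 and -0.02 over the 13837 probe sets tested. With 1 array per group, single hours have no test. At least 2-fold differences were counted instead, and they were found for CML23 at 1 h (1 of 7 members, against 0.781% of all probe sets compared), for 0 of 6 members at 2 h (0.739%) and for CML37 and CML41 at 4 h (2 of 7, against 1.75%). A probe set was compared where at least 1 of the 2 arrays was above the floor, and CML23 entered at 1 h through its paraquat array alone, so its 2-fold difference is against a mock signal below the floor.

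**Figure D1:**
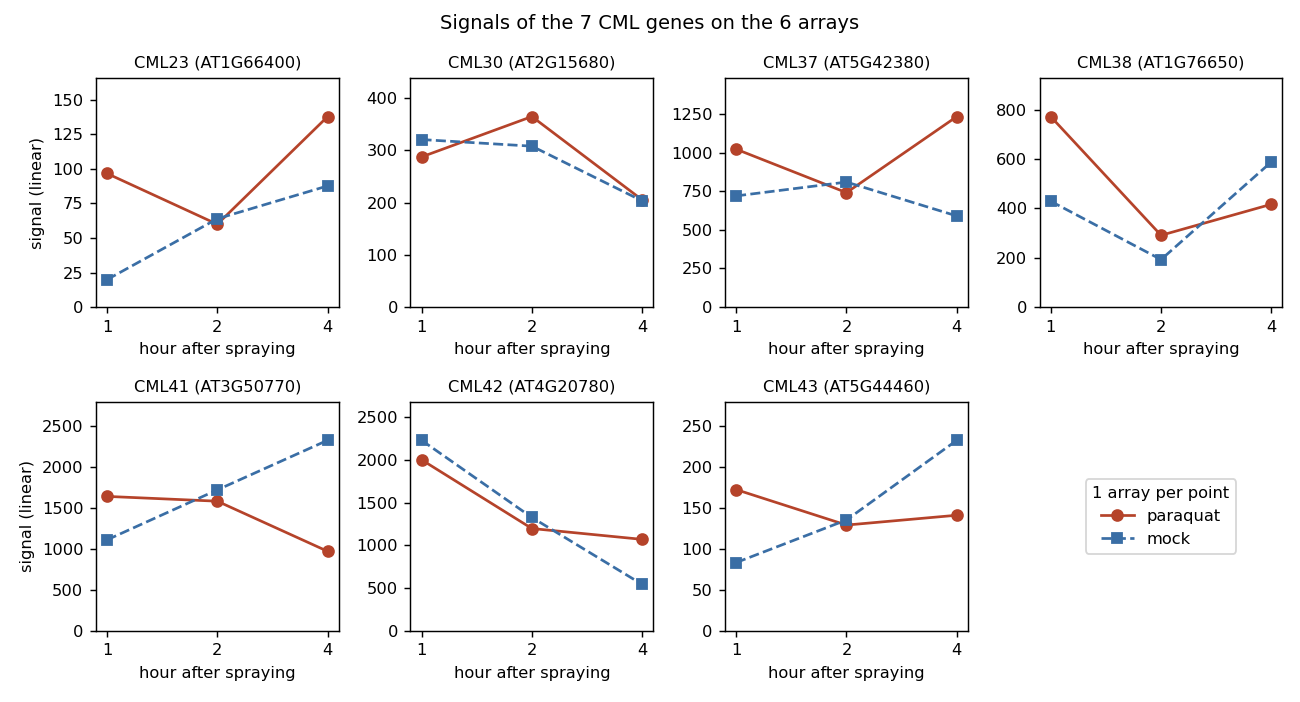
Signals on a linear scale (y axis) for the 7 CML genes by harvest hour (1, 2 and 4 h, x axis), with 1 array per point (red circles, paraquat; blue squares, mock). CML41 and CML43 had their highest signal on the mock 4 h array, CML42 was high at 1 h in both treatments, and CML38 was lowest at 2 h in both.

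CML41 is known to act at plasmodesmata, where it promotes callose deposition after bacterial flagellin is sensed. Signals of 1637, 1578 and 968 were measured at 1, 2 and 4 h in paraquat leaves and of 1107, 1716 and 2321 in mock leaves. The order of the treatments thus turned over, with paraquat above mock at 1 h, close to it at 2 h and below it at 4 h, and the ranges of the treatments overlapped. The log2 ratios were 0.55, -0.12 and -1.23. Both sides of the ratio contributed. From 1 to 4 h the log2 signal changed by -0.74 in paraquat and by 1.04 in mock leaves.

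CML43, whose transcript is known to be raised by immune elicitors, had the profile nearest to that of CML41 among the members. Paraquat leaves had 172, 129 and 141 at 1, 2 and 4 h, against 83.3, 135 and 233 in mock leaves. Here the paraquat arrays lay inside the mock range, and the mock arrays alone spread widely, over 1.18 log2 units against 0.34 in paraquat leaves. The log2 ratios were 0.82, -0.05 and -0.61. The root mean square distance between the centred log2 profiles of CML41 and CML43 over the 6 arrays was 0.29, the smallest of any pair of members. The largest, 1.01, was between CML23 and CML42.

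CML38 belongs to the core genes that Arabidopsis raises under low oxygen, and its protein is found in cytoplasmic RNA granules. It had signals of 773, 291 and 417 in paraquat leaves and of 429, 193 and 589 in mock leaves at 1, 2 and 4 h. It was the only member with its lowest signal at 2 h in both treatments, a shape that 12.6% of all tested probe sets had. Paraquat leaves were higher at 1 and 2 h and lower at 4 h, with log2 ratios of 0.80, 0.52 and -0.47. On the log2 scale the drop from 1 to 2 h was -1.31 in paraquat and -1.03 in mock leaves.

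CML37 is known as a positive regulator of jasmonate-dependent defence against insect larvae. In paraquat leaves its signals were 1022, 741 and 1233 at 1, 2 and 4 h, and in mock leaves 719.6, 809 and 589.8. Paraquat leaves were the higher ones at 1 and 4 h but not at 2 h, with log2 ratios of 0.49, -0.12 and 1.02. CML42, which is known from trichome branching and, in contrast to CML37, as a negative regulator of defence against insect larvae, had 2004, 1198.5 and 1071 in paraquat leaves and 2233, 1328 and 543 in mock leaves. The treatments were close at 1 and 2 h and parted at 4 h, where the paraquat signal was 1.97 times the mock one. Its log2 ratios were -0.15, -0.14 and 0.94.

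CML23, known with its near relative CML24 for effects on flowering time and nitric oxide levels, had 3 of its 6 arrays below the floor. Its signals were 96.6, 59.9 and 138 in paraquat leaves, against 19.8, 63.9 and 87.6 in mock leaves. The paraquat signal at 1 h was 4.87 times the mock signal, which lay far below the floor, and the log2 ratio of 1.28 became 1.89 with an added constant 4 times smaller. The ratios at 2 and 4 h were -0.06 and 0.50. CML30, whose protein has been placed in mitochondria, differed least, with 288, 365 and 205 in paraquat leaves and 321, 308 and 203 in mock leaves, and log2 ratios of -0.14, 0.22 and 0.01. For all 7 members the range of the 3 paraquat arrays overlapped that of the 3 mock arrays, so 0 of 7 stood apart, against 7.38% of all tested probe sets.

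**Figure D2:**
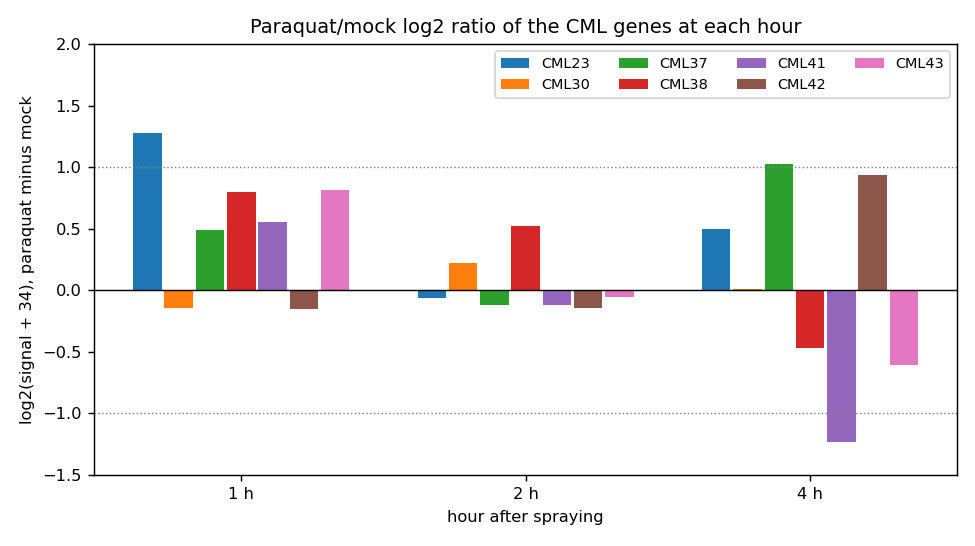
Differences of log2(signal + 34), paraquat minus mock, for each CML gene at 1, 2 and 4 h, from 1 array per treatment and hour (no error bars are possible); dotted lines mark a 2-fold difference. CML23, CML37, CML38, CML41 and CML43 lie above 0.4 at 1 h, and at 4 h CML41 lies lowest at -1.23 and CML37 highest at 1.02.

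Averaged over the 3 hours, no CML gene passed the test for a paraquat effect. With harvest hour as a block, limma called 0 of 7 members at an adjusted p under 0.05 (1 of 7, CML37, at an unadjusted p under 0.05), and 0.318% of the 13837 probe sets tested (10.3% at an unadjusted p under 0.05). The median member estimate was 0.21 log2 units, against -0.01 over all tested probe sets. CML37 had the smallest adjusted p, with an estimate of 0.46 ± 0.19 (moderated SE, n = 3 hours, limma adjusted p = 0.45, 95% interval 0.03 to 0.90). CML23 had 0.57 ± 0.25 with a 95% interval of -0.01 to 1.15. For CML41 the interval was -0.89 to 0.35 and for CML43 -0.51 to 0.61. The averages of CML41 and CML42 change sign without the 4 h arrays, to 0.22 and -0.15, that of CML43 without the 1 h arrays, to -0.33, and that of CML30, itself 0.03, without the 2 h arrays, to -0.065.

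In the test for a change of the paraquat effect with the hour, limma called CML41 alone (1 of 7, against 0.773% of all tested probe sets). At an unadjusted p under 0.05, 4 of 7 members passed, against 12.2% of all tested probe sets. The log2 ratio of CML41 fell by 0.89 ± 0.11 per doubling of the hour (moderated SE, limma adjusted p = 0.0035). The slopes of CML43 and CML38 were also negative, -0.71 ± 0.18 and -0.63 ± 0.14, and that of CML42 was positive, 0.55 ± 0.13, without passing the test (limma adjusted p = 0.088, 0.060 and 0.083). These 3 genes did pass when arrays were scaled by quantile normalization (limma adjusted p = 0.041, 0.016 and 0.021 for CML43, CML38 and CML42). The same held with arrays centred on their 75th percentile (0.042, 0.013 and 0.015). Calls over all 13837 probe sets rose as well, from 107 to 296 and 337. Without the filter on low signals the 3 genes did not pass (limma adjusted p = 0.51, 0.49 and 0.51), nor without the variance trend (0.26, 0.30 and 0.37). CML23 (-0.39 ± 0.27), CML37 (0.27 ± 0.18) and CML30 (0.08 ± 0.15) did not pass (limma adjusted p = 0.62, 0.61 and 0.89).

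The call of CML41 rests on the model. It was lost without the filter on low signals (limma adjusted p = 0.36), without the variance trend (0.25) and with the hour entered as a log2 slope in place of a block (1.00), where limma called 0 members and 0 of all probe sets (3 members and 415 probe sets at an unadjusted p under 0.05). The test has 1 residual degree of freedom, and with 1 array per group a changing effect and a deviant array cannot be told apart.

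**Figure D3:**
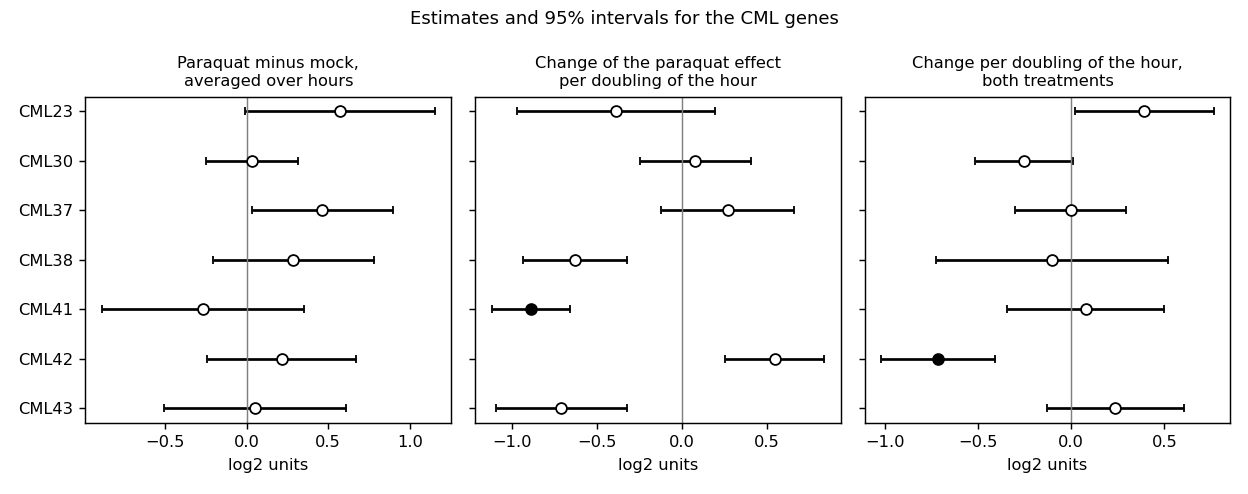
Estimates with 95% intervals from limma for the 7 CML genes (filled circles passed at an adjusted p under 0.05 over all tested probe sets; x axes in log2 units). The left panel is paraquat minus mock averaged over hours, the middle panel the change of that difference per doubling of the hour, where CML41 is filled, and the right panel the change per doubling of the hour over both treatments, where CML42 is filled.

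Over both treatments, CML42 fell with the hour after spraying. Its slope was -0.71 ± 0.13 log2 units per doubling of the hour (moderated SE, limma adjusted p = 0.023, 2 arrays per hour). It was the only member called (1 of 7, against 6.68% of all tested probe sets). At an unadjusted p under 0.05, 2 of 7 members passed, against 21.3%. Without the 1 h arrays the slope of CML42 was -0.70 but no longer passed (limma adjusted p = 0.12). It also did not pass without the paraquat 1 h array (0.070), the mock 1 h array (0.18) or the mock 4 h array (0.095), or without the filter on low signals (0.062). The summed signal of 2 of 5 guard cell markers, AT1G22690 and FMA, was lowest at 4 h too, with 2647, 2643 and 1895 in paraquat leaves and 2787, 2546 and 1508 in mock leaves at 1, 2 and 4 h, and its part in this change was not tested. AT1G22690 carried most of that sum, while FMA had 249, 260 and 317 in paraquat leaves, highest at 4 h, and 320, 315 and 255 in mock leaves. CML23 had a positive slope of 0.39 ± 0.16 and CML30 a negative slope of -0.25 ± 0.11, which did not pass (limma adjusted p = 0.21 and 0.26). The slopes of CML37, CML38, CML41 and CML43 were -0.0024 ± 0.13, -0.10 ± 0.27, 0.08 ± 0.18 and 0.24 ± 0.16.

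A straight slope misses a gene that dips and returns, so 2 h was also set against the mean of 1 and 4 h. CML38 was lower at 2 h by this test, with a difference of -1.07 ± 0.23 log2 units (moderated SE, limma adjusted p = 0.044), and was the only member called (1 of 7, against 3.76% of all tested probe sets). The call was lost without the paraquat 1 h array (limma adjusted p = 0.11), the mock 2 h array (0.21), the filter (0.18) or the variance trend (0.089). Without the 1 h arrays the plain slope of CML38 was 0.97 and without the 4 h arrays -1.17, which restates the same dip on the same arrays. The 2 h comparison was added after the values of CML38 had been seen, so its p-value is no independent test of the dip. In this comparison 2 of 7 members and 2686 of the 13837 probe sets had an unadjusted limma p under 0.05.

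From 1 to 4 h the members moved as follows within each treatment, with 1 array per hour and no test. In mock leaves CML23, CML41 and CML43 were at least 2-fold higher and CML42 at least 2-fold lower at 4 h than at 1 h (4 of 7 members, against 7.29% of probe sets, or 3.49% for higher and 3.81% for lower ones). At 1 h the mock signals of CML23 and CML43 were below the floor, so both entered this comparison through the 4 h array alone. In paraquat leaves 0 of 7 members differed 2-fold between these hours, against 5.63% of probe sets. The log2 differences, 4 h minus 1 h, were 0.40 in paraquat and 1.18 in mock leaves for CML23, -0.24 and 1.18 for CML43, and -0.88 and -1.97 for CML42. Between adjacent hours, CML38 was 2-fold lower at 2 h than at 1 h in paraquat leaves (1 of 7, against 2.73%) and in mock leaves (1 of 6, against 3.18%). At 4 h against 2 h, 0 of 7 differed 2-fold in paraquat leaves (2.48%), while in mock leaves CML38 was higher and CML42 lower (2 of 7, against 4.46%). Over the 3 hours, 5 of 7 members had a wider range in mock than in paraquat leaves, as did 58.8% of all tested probe sets.

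With a slope fitted to each treatment, CML42 fell in mock leaves, by 0.99 ± 0.13 per doubling of the hour (limma adjusted p = 0.043), and was the only member called there (1 of 7, against 0.882% of probe sets). The call was lost without the filter (limma adjusted p = 0.11) and without the variance trend (0.075). Unadjusted limma p-values under 0.05 for the mock slope were found for 4 of 7 members and 2055 of the 13837 probe sets. CML43 had 0.59 ± 0.13 and CML41 0.52 ± 0.12 in mock leaves (limma adjusted p = 0.12 and 0.13). In paraquat leaves limma called 0 of 7 members (2 of 7 at an unadjusted p under 0.05) and 0% of all probe sets (1566 at an unadjusted p under 0.05). There the slopes were -0.44 ± 0.13 for CML42, -0.37 ± 0.12 for CML41 and -0.12 ± 0.13 for CML43. A call in mock and none in paraquat leaves is not a difference between them. That difference is the test of the changing paraquat effect above, which CML42 and CML43 did not pass.

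**Figure D4:**
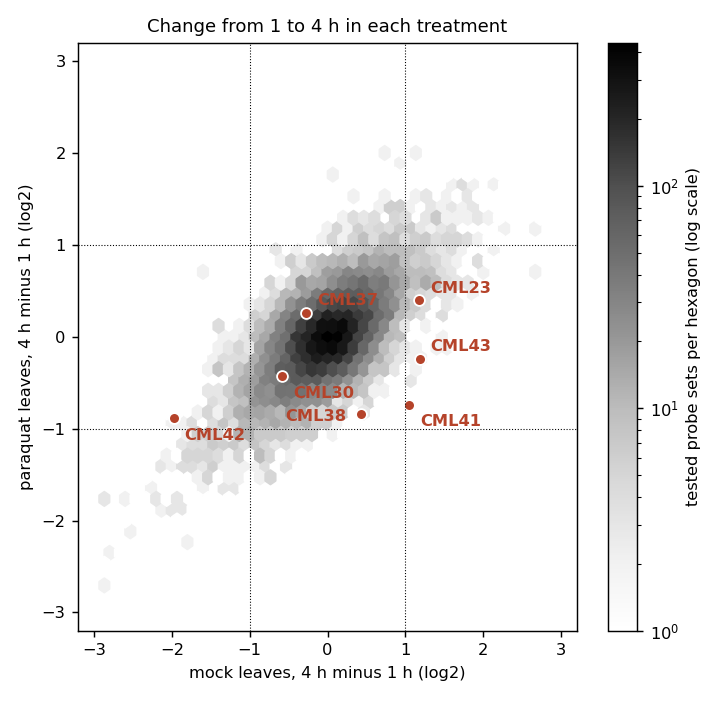
Change of log2(signal + 34) from 1 to 4 h in mock leaves (x axis) and paraquat leaves (y axis), 1 array per group; grey hexagons count the tested probe sets on a log scale, red points are the CML genes, and dotted lines mark 2-fold. CML23, CML41 and CML43 lie right of the 2-fold line for mock leaves and CML42 left of its counterpart, while all 7 lie within the 2-fold lines for paraquat leaves.

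Among the other named genes, those with profiles nearest to 4 members were sought over the 6 arrays, by the root mean square distance of centred log2(signal + 34) values to 7442 probe sets. Nearest to CML41 were AT1G72890, a gene of the disease resistance family with TIR and NBS domains (distance 0.17), AT4G28450 (0.17) and AT2G15690 (0.19). AT1G72890 had 257, 224 and 191 in paraquat leaves and 172, 338 and 395 in mock leaves at 1, 2 and 4 h. Nearest to CML43 were PPDK, the pyruvate orthophosphate dikinase gene (0.12), AT2G15220 (0.13) and AT2G43780 (0.14). PPDK had 2781, 2260 and 2396 in paraquat leaves and 1928, 2162 and 3972 in mock leaves. These genes were picked for their likeness on the same 6 arrays, so a shared shape is no finding. CML38 was followed less closely, by AT2G40460 (0.20), AT5G59680 (0.25) and AT3G23840 (0.27). CML23 was followed by AT1G03660 (0.09), AT2G04050, a transporter gene of the MATE family (0.12), and AT5G44410 (0.19).

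The other parts of calcium signalling could be followed only in part. Of 12 lists of calcium genes, 10 had no probe set that names their genes alone in the annotation used, calmodulins and calcium-dependent protein kinases among them, and these were not analysed here. Of 8 glutamate receptor-like channel genes, whose products pass calcium into the cell, 5 were tested. With limma 0 of the 5 passed for the averaged paraquat effect (0 at an unadjusted p under 0.05) and 0 for its change with the hour (1), against 0.318% and 0.773% of all probe sets (10.3% and 12.2% unadjusted). For the change with the hour 1 of the 5 passed, against 6.68%, and 3 of 5 at an unadjusted p under 0.05, against 21.3%. GLR2.8 fell with the hour by 0.99 ± 0.07 log2 units per doubling (limma adjusted p = 0.0020), and the other 4 did not pass. Its signals were 578, 255 and 129 in paraquat leaves and 608, 270 and 123 in mock leaves, so the treatments stayed close while the level differed with the hour. GLR1.4 ranged from 379 to 721 in paraquat and from 421 to 644 in mock leaves. GLR3.6 and ATGLR1.2 were above the floor on too few arrays to be tested, and GLR2.9 was above it on no array.

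Of 15 genes of IQ-domain proteins, which bind calmodulin, 9 were tested and limma called 0 for the averaged effect, its change with the hour or the change with the hour (0, 1 and 4 at an unadjusted p under 0.05). Over all tested probe sets the shares called were 0.318%, 0.773% and 6.68%, and 10.3%, 12.2% and 21.3% at an unadjusted p under 0.05. IQD22 varied most, with 40.8, 93.4 and 255 in paraquat leaves and 86.4, 225 and 164 in mock leaves, and paraquat/mock log2 ratios of -0.69, -1.03 and 0.54. Of the others with wide ranges, IQD19 exceeded the floor on a single array, paraquat 4 h, with 97.7, and iqd15 and IQD26 on no array. The calreticulin gene CRT1b, whose product stores calcium in the endoplasmic reticulum, rose with the hour by 0.27 ± 0.05 per doubling (limma adjusted p = 0.021), with signals of 5371, 5828 and 7719 in paraquat and 5385, 7144 and 8041 in mock leaves. The thylakoid calcium-sensing receptor gene CaS and the sodium/calcium exchanger gene NCL passed none of the 3 tests, with averaged paraquat estimates of -0.11 ± 0.08 and -0.09 ± 0.10 (limma adjusted p = 0.72 and 0.82).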

How the data were processed

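The deposited table holds a linear signal intensity for 22810 probe sets on 6 arrays, and the authors' software was MAS5 per the submitters' processing notes, whose version was not given in the sources used. The 2% trimmed mean was the same on all arrays (500.04), so total RNA per leaf cannot be compared. The number of arrays limits the precision. After 64 control probe sets were removed, signals were used as log2(signal + 34), 34 being the rounded 25th percentile. The floor was the 40th percentile, 86.2. Probe sets above it on at least 3 arrays were tested in R 4.3.3 by limma 3.58.1 (lmFit, eBayes with a variance trend, two-sided, Benjamini-Hochberg over 13837 probe sets). The models were hour as a block plus treatment (2 residual degrees of freedom), the same plus treatment times log2(hour) (1), and treatment plus log2(hour) (3). No group has a replicate, so the p-values rest on departures of the arrays from each model and not on spread between replicates. In the model of treatment plus log2(hour), curvature and differences between treatments count as error. Variance is also shared across probe sets, with prior degrees of freedom of 6.3, 11.8 and 4.4 in the order of the models. Tests were tried on simulated data, but no outcome of that trial is reported here, so it gives no error rate. Alternatives were the added constant, scaling, filter, variance trend, block and arrays left out. Symbols came from the probe annotation, updated through the gene table of TAIR10.1, in which 13436 of 13513 singly named probe sets matched. All 7 CML genes were named with their values, as were the 3 nearest profiles of CML23, CML38, CML41 and CML43, every calcium gene that passed a test and up to 4 others per list by range. The genes and lists were chosen with earlier results of these data known, CaS, CRT1b and NCL after the annotation was read. No sequences or coordinates were used here.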

Additional observations from a re-analysis of the deposited data

Results flagged for a closer look

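In the test of its change with the hour, the paraquat effect on CML41 was called as differing between the harvest hours. The slope was -0.89 log2 units per doubling. The call was lost without the filter on low signals (limma adjusted p = 0.36), without the variance trend (0.25) and with the hour as a log2 slope (1.00). The single-hour ratios behind it were 0.55, -0.12 and -1.23 in order of the hours, so paraquat leaves had the higher signal in 1 of 3 hours.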

How the results depend on the processing

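With 1 array per group, 13837 tested probe sets and 1 to 3 residual degrees of freedom, counts of calls moved widely with the settings, and the cause was not tested. For the averaged paraquat effect, limma called 44 probe sets, against 0 without the filter on low signals (1821 at an unadjusted p under 0.05), 1 without the variance trend (1376) and 0 without the hour block (375). For the change of this effect it called 107, against 296 with quantile normalization and 337 with centring on the 75th percentile (4 CML genes in both), and 0 (0 CML genes) without the filter (1958 unadjusted), without the trend (1452) and with the hour as a log2 slope (415), a model chosen after seeing the data. For the change with the hour it called 924, against 392 (0 CML genes) without the filter and 2277 when 4 h was set against 1 h. The 2 h contrast and the slopes within a treatment were also chosen after seeing the data. The 2 h contrast called 520, against 28 without the filter and 212 without the trend (0 CML genes in both), and the slope in mock leaves 122, against 1 and 1 (0 CML genes in both). With the smaller added constant, the 2-fold counts moved to 212, against 111, at 1 h and to 190, against 105, at 2 h. The signal over background limits CML23, which was below the floor on 3 arrays.

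With arrays left out, the averaged effect gave 7 calls without the 1 h arrays to 71 without the 4 h arrays and 0 CML genes, with estimates of -0.065 to 0.12 for CML30, -0.68 to 0.22 for CML41, -0.15 to 0.40 for CML42 and -0.33 to 0.38 for CML43. The change with the hour gave 31 calls without the mock 1 h array to 2192 without the 2 h arrays and 0 to 2 CML genes, with slopes of -0.63 to 0.13 for CML30, -0.20 to 0.14 for CML37, -1.17 to 0.97 for CML38 and -0.21 to 0.41 for CML41. The 2 h contrast gave 120 calls without the mock 2 h array to 1061 without the paraquat 4 h array and 0 to 1 CML genes. Its estimates were -0.67 to 0.27 for CML23, -0.58 to 0.30 for CML37, -0.16 to 0.57 for CML41, -0.29 to 0.26 for CML42 and -0.43 to 0.14 for CML43. The change of the paraquat effect, with the hour as a slope, gave 0 to 5 calls and 0 CML genes, with estimates of -1.06 to 0.28 for CML23, -0.45 to 0.60 for CML30, -0.31 to 0.85 for CML37 and -1.88 to 0.61 for CML38, while CML41 stayed at -1.21 to -0.57. Leaving an hour out of its hour-block model could not be fitted. Paraquat and mock arrays were paired by hour through the block, and the labels give no replicate numbers for another pairing.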

Other observations

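The TAIR10.1 gene table lists the chromosomal neighbours of the CML genes. Next to CML38 lies AT1G76640, which carries the synonym CML39 and stayed at 1.70 to 5.46 in paraquat and at 1.34 to 7.31 in mock leaves, on arrays where CML38 reached 773 and 589. CML37 carries the same synonym in that table. AT1G76660, on the other side of CML38, had 164 to 198 in paraquat and 146 to 164 in mock leaves. Next to CML43, AT5G44450 had 182, 214 and 209 in paraquat and 130.1, 155 and 206 in mock leaves at 1, 2 and 4 h. AT2G15690, next to CML30, is the gene named above for a profile near that of CML41, with 763, 851 and 491 in paraquat and 498, 950.1 and 869.7 in mock leaves. The neighbours of CML42 stayed below 18 on all arrays.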
